A study of Mus musculus with 9 samples.

Results

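The genes of the motor proteins that run along microtubules, the kinesins with their light chains and adaptors, cytoplasmic dynein and its activator dynactin, were followed in mouse spinal cord after lowering of C9orf72. They were chosen by gene symbol (Kif, Klc, Dync, Dynl and Dctn followed by the number or letter of a family member, without pseudogenes) and by a level of 0.5 or more in at least 3 of the 9 libraries. Of 14831 genes in the authors' table, 58 matched by symbol and 53 of these passed the level rule, among 14430 genes tested. A further 13 symbols of the annotation that match, among them the kinesins of dividing cells Kif14, Kif15, Kif20a and Kifc1, had no row in the table used here. All mice were wild-type C57Bl/6 females aged 10 weeks and were injected with 10 µl in the right brain ventricle. There were 3 libraries of each group: C9orf72 ASO (500 µg of ASO 571883 against mouse C9orf72), control ASO (500 µg of ASO 456835) and saline (no ASO). Spinal cord was taken 2 weeks later and sequenced as strand-specific RNA-seq. An antisense oligonucleotide (ASO) is a short modified nucleic acid strand that pairs with a chosen RNA and lowers its level, and the design asked what loss of C9orf72 function does in the cord.

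Kinesins and cytoplasmic dynein use ATP to step along microtubules, and in an axon most kinesins carry cargo away from the cell body while dynein carries cargo back to it. A kinesin-1 motor joins heavy chains (Kif5a, Kif5b, Kif5c) with light chains (Klc genes) that hold cargo, and dynein joins a heavy chain with intermediate, light intermediate and light chains and needs dynactin to move far. The long axons of spinal motor neurons depend on this traffic, and in people changes in KIF5A and DCTN1 are known causes of motor neuron disease. The cord also holds glia and vessels that use the same motors, so that a level in whole tissue is a sum over cell types.

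The targeted gene was low in each C9orf72 ASO library, at 3.07 ± 0.359 RPKM in C9orf72 ASO, 11.2 ± 0.549 RPKM in control ASO and 11.1 ± 0.537 RPKM in saline (SD, n = 3 each, as in all such values) (log2 fold change -1.84 against control ASO, SE 0.08, limma adjusted p = 1.83e-06). Values are RPKM, reads scaled by transcript length and by depth, and the table puts 0.1 in place of anything under 0.5 RPKM. Depth, read from the step between values of short RNA genes, was estimated at 90.3 to 124 M reads. A gene at 0.5 RPKM would then have 45.15 to 62.09 reads per kilobase. The labels do not say whether the libraries are of separate animals, so p-values measure the spread between these samples, which may be technical. Marker genes of the cord's cell types were present in each group: the sum of 12 neuron markers was 3495 to 3847 RPKM in C9orf72 ASO, 3887 to 4039 RPKM in control ASO and 3627 to 3895 RPKM in saline libraries. The sum of 9 motor neuron markers with a row (Chat and Prph among them) was 67.0 to 79.5 RPKM in C9orf72 ASO, 68.8 to 79.3 RPKM in control ASO and 68.8 to 78.3 RPKM in saline libraries. The sum of 11 microglia markers was 231 to 245 RPKM in C9orf72 ASO, 182 to 197 RPKM in control ASO and 178 to 203 RPKM in saline libraries, with no overlap between the C9orf72 ASO libraries and the others. The sum of 12 vessel markers was 73.5 to 79.5 RPKM in C9orf72 ASO, 71.5 to 99.3 RPKM in control ASO and 102 to 129 RPKM in saline libraries. In bulk tissue fewer cells of a type and less RNA per cell cannot be told apart. Saline libraries 1 and 2 stood apart from each other by transcript length, as described with the length values. The count and median of members against saline, the Kif26a call and the correlation with length are also given without each. Values of other single genes for C9orf72 ASO against saline are given with all 3 saline libraries.

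Some motor genes exist as close copies, and their first coding bases show which copies short reads can separate. The light chains Dynll2 and Dynll1, small homodimers that bind dynein and many other proteins, share 81.1% of 270 coding bases. The first 75 coding bases of each, from the GENCODE M21 transcripts on GRCm38, differ at 15 positions, marked here in capitals.
Dynll2: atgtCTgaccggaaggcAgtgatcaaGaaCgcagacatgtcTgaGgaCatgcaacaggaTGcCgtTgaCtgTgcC
Dynll1: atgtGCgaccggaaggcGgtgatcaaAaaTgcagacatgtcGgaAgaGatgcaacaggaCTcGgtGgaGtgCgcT
The differences lie a few bases apart, and the longest stretch of identical coding bases is 16. The light chains Dynlt1a and Dynlt1c, which both lie on chromosome 17, have the same 342 coding bases (100% identity), so that reads within them cannot be told apart. The rest of the transcripts was not compared, and the values of both genes are given as uncertain. The symbols Dynlt1b and Dynlt1f also match the rule but had no row, and their sequences were not compared. Whether their reads entered these values was not tested.
Dynlt1a: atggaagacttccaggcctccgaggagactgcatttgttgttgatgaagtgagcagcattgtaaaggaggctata
Dynlt1c: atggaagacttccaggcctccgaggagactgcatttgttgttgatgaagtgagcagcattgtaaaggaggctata
No capitals stand in this pair because no base differs. The other pairs compared were less alike over the whole coding sequence: 68.1% for Kif5a and Kif5c, 62.3% for Kif5a and Kif5b, 69.8% for Kif5b and Kif5c, 71.0% for Dync1i1 and Dync1i2, 65.3% for Dync1li1 and Dync1li2, and 68.9% for Kif1a and Kif1b.

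The motor genes spanned the range of expression, with 9 at a mean of 100 RPKM or more over the 9 libraries, 4 under 1 RPKM and 30 over 20 RPKM. The highest was Dynll2 at 571 RPKM, followed by the neuronal kinesin-1 heavy chain Kif5a at 290.1 and the ubiquitous one Kif5b at 169 RPKM. The lowest were Kif26a at 0.426, Kif27 at 0.575 and Kif18a at 0.664 RPKM. The order of the first 3 held in the C9orf72 ASO and control ASO groups, while in saline Klc1 averaged 173 ± 13.97 RPKM and Kif5b 161 ± 8.34 RPKM, a difference within their spread. Several kinesins of the mitotic spindle were at or near the floor. Kif11, Kif20b and Kif23 stood at 0.1 RPKM in all 9 libraries, and Kif4 reached 0.541 RPKM in control ASO library 3 alone. The kinesin-1 light chain Klc3 reached 0.514 RPKM in control ASO library 1 and 0.586 RPKM in saline library 1. These 5 genes did not meet the level rule, with Klc3 (2 libraries over 0.5) just outside it and Kif26a (6 libraries) and Kif27 (8 libraries) inside it with libraries at the floor. The other 51 members had no library at the floor.

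**Figure D1:**
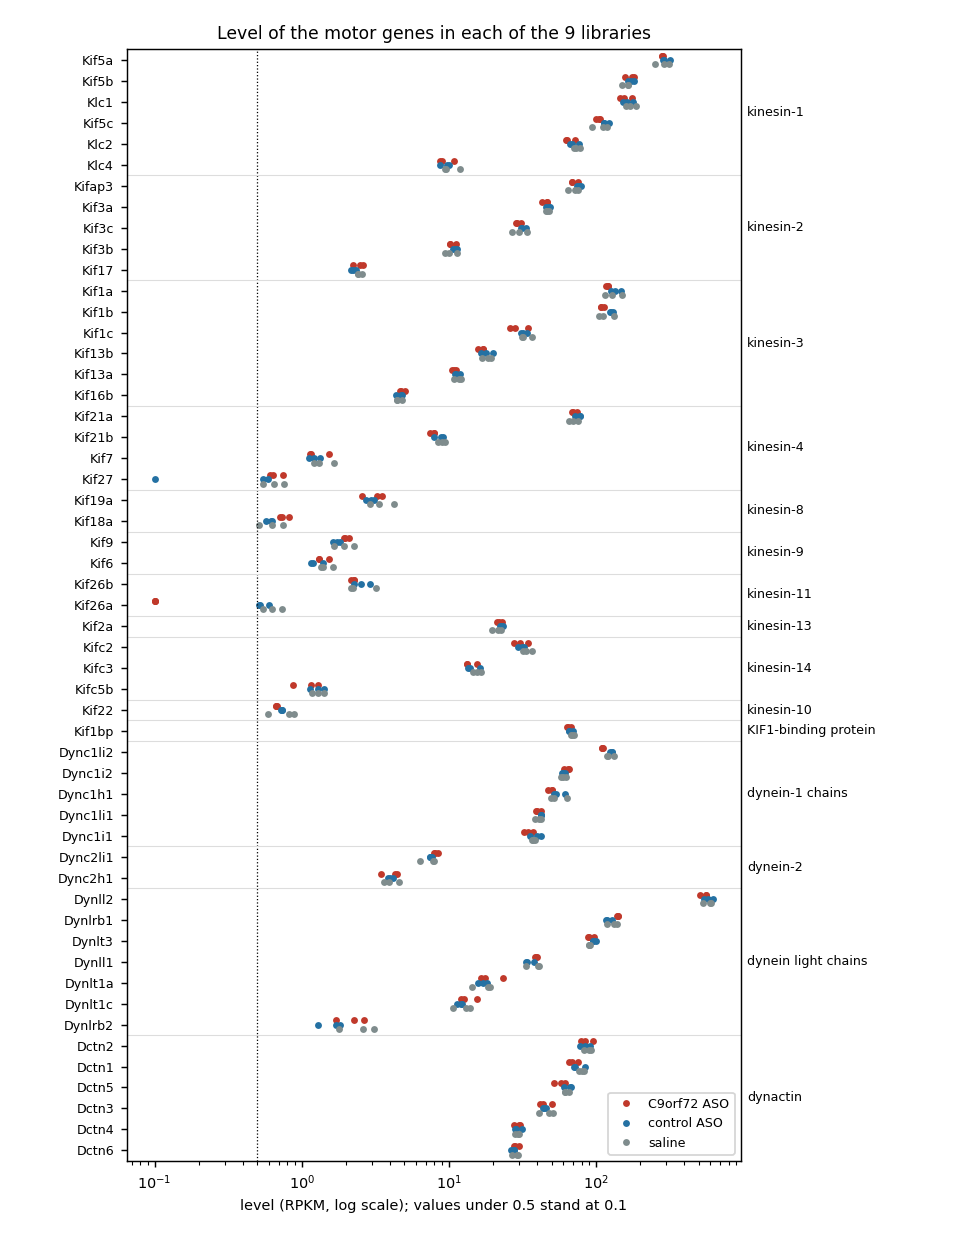
Level of each of the 53 motor genes in each library (RPKM, log axis), by role and then by level, with C9orf72 ASO above control ASO above saline in each row. The dotted line is 0.5 RPKM, and values left of it stand for anything under 0.5. For most genes the 9 libraries lie within a narrow band, and the 3 Kif26a points of the C9orf72 ASO group are at the floor.

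No motor gene passed the test between C9orf72 ASO and control ASO (limma, adjusted p under 0.05 over all genes tested), where 0.0693% of all tested genes passed. The same held between C9orf72 ASO and saline, where also 0.0693% passed, and between control ASO and saline, where 0.00693% passed. Against both control groups together 1 member passed, Kif26a, which was tested through its control libraries and had no C9orf72 ASO library over 0.5 RPKM, a call that ended with floor values raised to 0.5 RPKM, with 0.173% of all tested genes past the threshold and 0.097% past it as lower. At an unadjusted p under 0.05 the counts were 6 of 53 members against control ASO (11.3%, against 14.1% of all tested genes), 5 against saline (9.43%, against 14%), 6 against both (11.3%, against 16.7%) and 1 between control ASO and saline (1.89%, against 5.35%). The share of members past that line was below the background in each comparison.

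The median log2 fold change over the 53 members was -0.05 against control ASO, against -0.01 over all tested genes, and -0.05 against saline, against -0.03. It was -0.04 against both control groups, against -0.02, and -0.02 between control ASO and saline, the same as over all tested genes. Members below 0 numbered 33 against control ASO (62.3%, against 54.1% of all tested genes), 34 against saline (64.2%, against 58.7%) and 36 against both (67.9%, against 57.2%). The groups did not overlap in 15 members against control ASO (28.3%, against 22% of all tested genes), 6 of them higher (against 10.1% of all tested genes) and 9 lower (against 11.8%) in the C9orf72 ASO libraries. Against saline this was so for 7 members (13.2%, against 18%), 1 higher (against 5.61%) and 6 lower (against 12.4%). Against all 6 control libraries it was so for 3 members (5.66%, against 7.87%): Dync1li2 and Kif26a, lower (against 5.05% of all tested genes), and Dync2li1, higher (against 2.82%). Apart from the genes with a library at the floor, log2 fold changes against control ASO lay between -0.21 and 0.42, with a median SE of 0.08. Within a group, the 30 members over 20 RPKM had a median SD of 0.0959 on the log2 scale, against 0.0885 for 3425 genes at such levels. Without saline library 1 and without saline library 2 there were again 0 members past the threshold against saline, with medians of -0.05 and -0.04.

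**Figure D2:**
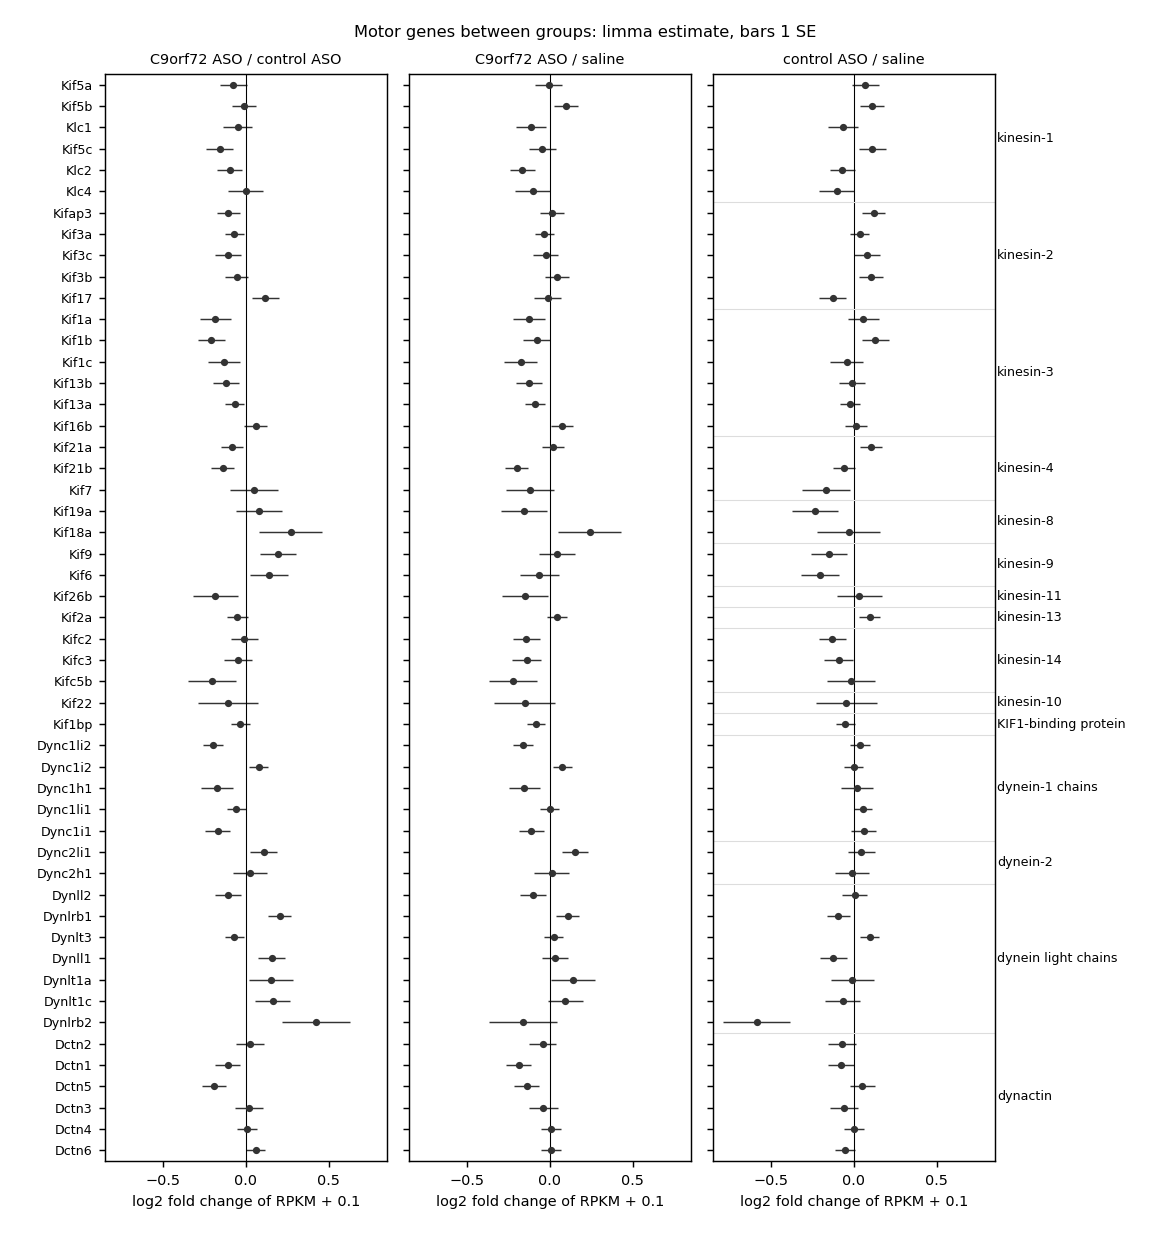
Log2 fold change of RPKM + 0.1 for the 51 motor genes with no library at the floor, by role (points, limma estimate; bars, 1 SE). The left panel is C9orf72 ASO over control ASO, the middle one C9orf72 ASO over saline and the right one control ASO over saline. Most points lie near 0, and Dynlrb2 in the right panel is the point farthest from 0, at -0.59.

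Kif26a is the member that carried the only call. It encodes an atypical kinesin that binds microtubules without moving along them and is known in the mouse for the growth of enteric neurons. Kif26a stood at 0.1 RPKM in each C9orf72 ASO library, 0.596, 0.510 and 0.517 RPKM in the control ASO libraries and 0.732, 0.630 and 0.545 RPKM in the saline libraries. Kif26a met the level rule through its control libraries: all 3 C9orf72 ASO libraries were below the limit of the table, and the 6 control libraries were just above it. Taking 0.5 RPKM for each of the C9orf72 ASO libraries, the level was at least 1.08-fold lower than in control ASO, at least 1.27-fold lower than in saline and at least 1.18-fold lower than in both. The fitted log2 fold change against both was -1.77 (SE 0.26, adjusted p = 0.0240), which depends on the replacement of values under 0.5 by 0.1 and is no measure of size. With floor values raised to 0.5 RPKM it was -0.19 and the call ended (adjusted p = 0.365). The call was also lost in 7 of 9 fits that left out 1 library (adjusted p 0.0536 to 0.0876), among them those without saline library 1 (0.0604) and without saline library 2 (0.0700), and held without C9orf72 ASO library 3 and without saline library 3. A group at the floor adds no spread to the fit. The paralog Kif26b had 2.24 ± 0.0510 RPKM in C9orf72 ASO, 2.57 ± 0.322 RPKM in control ASO and 2.53 ± 0.581 RPKM in saline, or -0.18 on the log2 scale against control ASO (adjusted p = 0.552). Its C9orf72 ASO libraries lay below all 3 control ASO libraries, by a margin in the last digit against control ASO library 2, and within the range of saline.

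The promoter of Kif26a is shown as that of the gene of the only call, which rests on values at the floor. That of the neuronal Kif5c, whose share of Kif5 RNA is described with the other shares, is shown beside it. Both are the 250 bases before the start in RefSeq on GRCm38.p6, plus strand, with matches to the motifs searched in capitals: the GC box GGGCGG, the CCAAT box, the TATA box TATAAA and the cyclic AMP response element (CRE) TGACGTCA, each on both strands.
Kif26a, chr12:112145958-112146207: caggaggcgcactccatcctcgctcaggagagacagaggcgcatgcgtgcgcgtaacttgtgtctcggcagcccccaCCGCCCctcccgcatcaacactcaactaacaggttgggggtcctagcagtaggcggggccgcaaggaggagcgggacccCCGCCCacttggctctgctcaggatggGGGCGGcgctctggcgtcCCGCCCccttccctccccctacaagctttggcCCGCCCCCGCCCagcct
Kif5c, chr2:49619036-49619285: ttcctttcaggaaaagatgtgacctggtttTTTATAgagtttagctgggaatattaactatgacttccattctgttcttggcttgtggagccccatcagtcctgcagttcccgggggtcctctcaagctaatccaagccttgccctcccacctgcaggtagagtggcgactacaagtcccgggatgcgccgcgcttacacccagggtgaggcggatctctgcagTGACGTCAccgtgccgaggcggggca
The Kif26a window held 6 GC boxes, 19 CpG and 69.2% G and C, and none of the other motifs. The Kif5c window held 1 TATAAA, 1 CRE and 11 CpG at 55.2% G and C, with no GC box. Its TATAAA lies on the minus strand, near the end of the window far from the start. Of the 53 members 38 had a promoter entry, read from 250 bases before the start to 50 after it. A GC box was found in 71.1% of these 38, against 68.4% of 10782 tested genes and 35.7% of all 32851 promoters. Members and tested genes were counted by gene, with any promoter entry, and all promoters by entry, here and for the other motifs. CCAAT was found in 42.1% of the 38, against 42.9% of the tested genes, and TATAAA in 7.89% (Kif27, Kif5c and Kif9), against 8.74%. CRE letters stood in 5 members (Dctn3, Kif17, Kif18a, Kif5c and Klc1, 13.2%), against 3.47% of tested genes and 1.79% of all promoters. The 5 genes with a CRE included some higher and some lower against control ASO by log2 fold change: 0.27 for Kif18a, 0.12 for Kif17, 0.02 for Dctn3, -0.05 for Klc1 and -0.16 for Kif5c, none of which passed. The letters are a description of these windows and show no binding.

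The kinesin-1 genes drive fast transport of vesicles and mitochondria along axons. Against control ASO 6 of 6 members had a log2 fold change below 0 (median -0.06), and 0 passed. Of all tested genes 54.1% were below 0. Klc4 (-0.0028) was above 0 under median scaling and quantile normalization, and Kif5b (-0.013) with the length trend removed. Klc1, Klc4 and Kif5b were each also above 0 in some fit that left out 1 library. Kif5a stood at 288, 281 and 283 RPKM in the C9orf72 ASO libraries, 321, 287 and 291 RPKM in the control ASO libraries and 254, 314 and 292 RPKM in the saline libraries. The C9orf72 ASO libraries lay close together, inside the range of saline, and overlapped with control ASO library 2. Kif5b stood at 176, 182 and 158 RPKM in the C9orf72 ASO libraries, 173, 182 and 166 RPKM in the control ASO libraries and 151, 166 and 165 RPKM in the saline libraries. Here the groups overlapped, with saline library 1 the lowest. Kif5c stood at 105, 106.9 and 101 RPKM in the C9orf72 ASO libraries, 122, 114 and 113 RPKM in the control ASO libraries and 94.7, 119 and 111 RPKM in the saline libraries. Each C9orf72 ASO library of Kif5c was below each control ASO library, and saline library 1 was lower still. In Kif5c the log2 fold change against control ASO was -0.16 (SE 0.08, adjusted p = 0.398), and against saline -0.05 (adjusted p = 0.838). The light chain Klc1, which links the heavy chains to cargo, had 159.7 ± 15.3 RPKM in C9orf72 ASO, 165 ± 12.7 RPKM in control ASO and 173 ± 13.97 RPKM in saline, with overlap between groups. Klc2 had 66.2 ± 4.88 RPKM in C9orf72 ASO, 70.9 ± 5.504 RPKM in control ASO and 74.3 ± 3.64 RPKM in saline. It was among the 5 smallest p-values against saline, with -0.17 on the log2 scale (SE 0.08, adjusted p = 0.352), but C9orf72 ASO library 3 lay within the saline range. Klc4, much lower, had 9.52 ± 1.15 RPKM in C9orf72 ASO, 9.51 ± 0.669 RPKM in control ASO and 10.3 ± 1.39 RPKM in saline, with overlap between groups.

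The kinesin-3 genes include Kif1a, the carrier of synaptic vesicle precursors, and Kif1b, whose products carry mitochondria and synaptic vesicle precursors. Of 6 members 5 were below 0 against control ASO (median -0.13), with Kif13a above 0 when the length trend was removed, and 5 of 6 against saline (median -0.11), with 0 past the threshold. Of all tested genes 54.1% were below 0 against control ASO and 58.7% against saline. Kif1a stood at 121, 122 and 117 RPKM in the C9orf72 ASO libraries, 148, 126 and 136 RPKM in the control ASO libraries and 116, 151 and 129 RPKM in the saline libraries. Kif1b stood at 108.3, 114 and 108.4 RPKM in the C9orf72 ASO libraries, 126, 124 and 132 RPKM in the control ASO libraries and 105, 134 and 112 RPKM in the saline libraries. For both genes the C9orf72 ASO libraries were below all 3 control ASO libraries, with saline library 1 lower again and saline library 2 higher than any control ASO library. Against control ASO the log2 fold change was -0.21 for Kif1b (SE 0.08, adjusted p = 0.302) and -0.18 for Kif1a (SE 0.09, adjusted p = 0.397). Against saline they were -0.08 (adjusted p = 0.710) and -0.13 (adjusted p = 0.579). Kif1c, found in many tissues, had 29.7 ± 4.39 RPKM in C9orf72 ASO, 32.4 ± 1.68 RPKM in control ASO and 33.4 ± 3.06 RPKM in saline. Kif13b, a vesicle carrier, had 16.7 ± 0.753 RPKM in C9orf72 ASO, 18.2 ± 1.77 RPKM in control ASO and 18.3 ± 1.31 RPKM in saline. Kif13a, also a vesicle carrier, had 10.9 ± 0.295 RPKM in C9orf72 ASO, 11.4 ± 0.399 RPKM in control ASO and 11.6 ± 0.668 RPKM in saline. The exception in direction was Kif16b, a motor of early endosomes and the kinesin-3 gene above 0, with 4.82 ± 0.206 RPKM in C9orf72 ASO, 4.63 ± 0.233 RPKM in control ASO and 4.57 ± 0.194 RPKM in saline. In these 4 genes the C9orf72 ASO libraries overlapped with each control group.

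Kinesin-2 motors serve both axons and cilia, where Kif3a and Kif3b or Kif3c pair with the adaptor Kifap3. Kif3a stood at 46.7, 46.5 and 43.3 RPKM in the C9orf72 ASO libraries, 48.4, 45.8 and 49.1 RPKM in the control ASO libraries and 45.5, 47.9 and 46.3 RPKM in the saline libraries. Its groups overlapped. Kif3b had 10.6 ± 0.520 RPKM in C9orf72 ASO, 10.98 ± 0.363 RPKM in control ASO and 10.3 ± 0.951 RPKM in saline. Kifap3 had 71.4 ± 3.69 RPKM in C9orf72 ASO, 76.9 ± 2.20 RPKM in control ASO and 70.9 ± 5.85 RPKM in saline, and both overlapped as well. Kif3c, the partner found mostly in neurons, had 29.7 ± 1.19 RPKM in C9orf72 ASO, 31.9 ± 1.21 RPKM in control ASO and 30.3 ± 3.43 RPKM in saline, with each C9orf72 ASO library below the control ASO libraries and inside the range of saline. Log2 fold changes of these 4 genes against control ASO were between -0.11 and -0.06, with adjusted p up to 0.737, and Kif3b was above 0 with the length trend removed. Kif17, a carrier of glutamate receptors in dendrites, was the only kinesin-2 gene above 0 (0.12, adjusted p = 0.529) and lower in control ASO than in each saline library, with 2.45 ± 0.202 RPKM in C9orf72 ASO, 2.25 ± 0.0818 RPKM in control ASO and 2.47 ± 0.104 RPKM in saline.

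Kif21b, a kinesin-4 motor that also limits microtubule growth, had the smallest p after Kif26a against saline. Kif21b stood at 7.99, 7.48 and 7.89 RPKM in the C9orf72 ASO libraries, 9.07, 7.97 and 8.79 RPKM in the control ASO libraries and 9.05, 9.48 and 8.39 RPKM in the saline libraries. Its C9orf72 ASO libraries were below all saline libraries and overlapped with control ASO library 2 by a small margin. It had log2 fold changes of -0.20 against saline (SE 0.07, adjusted p = 0.255), -0.14 against control ASO (adjusted p = 0.380) and -0.17 against both (adjusted p = 0.204). Kif21a, the more abundant paralog, had 71.6 ± 2.86 RPKM in C9orf72 ASO, 76.02 ± 3.38 RPKM in control ASO and 70.7 ± 4.92 RPKM in saline, and overlapped between groups. Kif7, a regulator of Hedgehog signalling at the cilium tip, had 1.27 ± 0.224 RPKM in C9orf72 ASO, 1.22 ± 0.102 RPKM in control ASO and 1.39 ± 0.230 RPKM in saline. Kif27 stood at 0.747, 0.639 and 0.609 RPKM in the C9orf72 ASO libraries, 0.590, 0.543 and 0.1 RPKM in the control ASO libraries and 0.752, 0.648 and 0.549 RPKM in the saline libraries. The value of control ASO library 3 stood for anything under 0.5 RPKM, so no fold is given for Kif27, whose C9orf72 ASO libraries were above all control ASO libraries and within the range of saline.

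Among the kinesins of cilia and flagella, Kif9 had 2.00 ± 0.0887 RPKM in C9orf72 ASO, 1.74 ± 0.0994 RPKM in control ASO and 1.95 ± 0.312 RPKM in saline. Kif6, its relative in motile cilia, had 1.39 ± 0.134 RPKM in C9orf72 ASO, 1.251 ± 0.129 RPKM in control ASO and 1.45 ± 0.147 RPKM in saline. Kif19a, which trims microtubules at the tips of motile cilia, had 3.13 ± 0.492 RPKM in C9orf72 ASO, 2.93 ± 0.199 RPKM in control ASO and 3.50 ± 0.660 RPKM in saline. Kif9 was higher in each C9orf72 ASO library than in each control ASO library, and Kif6 and Kif19a overlapped. Kif18a, which shortens microtubules of the spindle, had 0.755 ± 0.0529 RPKM in C9orf72 ASO, 0.608 ± 0.0319 RPKM in control ASO and 0.628 ± 0.113 RPKM in saline, again above all control ASO libraries and overlapping with saline. Its log2 fold change was 0.27 against control ASO (SE 0.19, adjusted p = 0.524). Kif22, a motor that binds chromosome arms, had 0.671 ± 0.00424 RPKM in C9orf72 ASO, 0.731 ± 0.00539 RPKM in control ASO and 0.768 ± 0.159 RPKM in saline, with the C9orf72 ASO libraries below the control ASO libraries and saline spread wider than the gap between them. Kif2a, which takes apart microtubule ends, had 22.0 ± 0.788 RPKM in C9orf72 ASO, 22.8 ± 0.656 RPKM in control ASO and 21.4 ± 1.48 RPKM in saline, with overlap. Of the kinesin-14 genes, which step the opposite way to most kinesins, Kifc2 had 30.9 ± 3.32 RPKM in C9orf72 ASO, 31.1 ± 1.48 RPKM in control ASO and 34.1 ± 2.32 RPKM in saline. Kifc3 had 14.1 ± 1.37 RPKM in C9orf72 ASO, 14.6 ± 1.43 RPKM in control ASO and 15.5 ± 0.961 RPKM in saline. Kifc5b had 1.11 ± 0.208 RPKM in C9orf72 ASO, 1.28 ± 0.148 RPKM in control ASO and 1.30 ± 0.114 RPKM in saline. All 3 were below 0 against saline, between -0.22 and -0.14, and 0 passed. Kif1bp matches by symbol but encodes a protein that binds kinesins and is no motor, and it had 65.4 ± 2.27 RPKM in C9orf72 ASO, 67.0 ± 2.56 RPKM in control ASO and 69.4 ± 1.36 RPKM in saline.

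In cytoplasmic dynein the light intermediate chain Dync1li2, which links the motor to cargo adaptors, gave the smallest p of the members with no library at the floor against both control groups. Dync1li2 stood at 111, 111 and 113 RPKM in the C9orf72 ASO libraries, 129, 129.9 and 125 RPKM in the control ASO libraries and 134, 119 and 121 RPKM in the saline libraries. The C9orf72 ASO libraries lay close together, below all 6 control libraries. The log2 fold change was -0.20 against control ASO (SE 0.06, adjusted p = 0.247), -0.16 against saline (SE 0.06, adjusted p = 0.273) and -0.18 against both (SE 0.05, adjusted p = 0.163). Over 17 other settings the value against both stayed between -0.20 and -0.13, with adjusted p of 0.141 to 0.524, so the gene did not pass in any of them. Its paralog Dync1li1 had 40.6 ± 1.82 RPKM in C9orf72 ASO, 42.3 ± 0.214 RPKM in control ASO and 40.7 ± 1.72 RPKM in saline, with groups that overlapped.

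Dync1h1 stood at 50.1, 50.2 and 47.4 RPKM in the C9orf72 ASO libraries, 61.3, 51.8 and 54.0 RPKM in the control ASO libraries and 49.5, 63.8 and 52.2 RPKM in the saline libraries. Dync1h1 encodes the heavy chain that makes the force, and its C9orf72 ASO libraries were below all control ASO libraries, while saline library 1 lay among them and saline library 2 was the highest of the 9. Its log2 fold change was -0.18 against control ASO (adjusted p = 0.419) and -0.16 against saline (adjusted p = 0.479). The intermediate chains, which bind dynactin, lay on different sides of 0. Dync1i2 stood at 66.2, 64.3 and 60.4 RPKM in the C9orf72 ASO libraries, 59.3, 59.7 and 62.0 RPKM in the control ASO libraries and 62.6, 58.2 and 60.3 RPKM in the saline libraries. Dync1i1 stood at 32.5, 37.6 and 34.6 RPKM in the C9orf72 ASO libraries, 42.4, 35.7 and 39.9 RPKM in the control ASO libraries and 36.9, 37.3 and 38.9 RPKM in the saline libraries. For Dync1i2, C9orf72 ASO libraries 1 and 2 were the highest of the 9. For Dync1i1, found mostly in neurons, C9orf72 ASO libraries 1 and 3 were the lowest. The log2 fold change against control ASO was 0.08 for Dync1i2 (adjusted p = 0.557) and -0.17 for Dync1i1 (adjusted p = 0.338), and neither passed. Dynein-2 moves cargo back along cilia, and its light intermediate chain Dync2li1 had 8.13 ± 0.295 RPKM in C9orf72 ASO, 7.54 ± 0.102 RPKM in control ASO and 7.34 ± 0.857 RPKM in saline. This was the member higher in each C9orf72 ASO library than in all 6 control libraries, at 0.13 against both (SE 0.07, adjusted p = 0.370). The gap to the nearest control library was under 0.02 RPKM. The dynein-2 heavy chain Dync2h1 had 4.08 ± 0.521 RPKM in C9orf72 ASO, 3.996 ± 0.169 RPKM in control ASO and 4.05 ± 0.473 RPKM in saline, and overlapped.

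Of the 7 dynein light chains, 5 were above 0 against control ASO (median 0.15) and 0 passed, where 54.1% of all tested genes were below 0. Dynlrb1 stood at 142, 139 and 141 RPKM in the C9orf72 ASO libraries, 120.1, 129 and 118 RPKM in the control ASO libraries and 134, 119 and 140.0 RPKM in the saline libraries. The C9orf72 ASO libraries of Dynlrb1, a roadblock light chain, were above all control ASO libraries and reached the same level as saline library 3. The log2 fold change was 0.20 against control ASO (SE 0.07, adjusted p = 0.267) and 0.11 against saline (adjusted p = 0.511). Dynll1 stood at 39.8, 39.1 and 38.7 RPKM in the C9orf72 ASO libraries, 34.1, 38.0 and 33.7 RPKM in the control ASO libraries and 41.2, 33.6 and 40.7 RPKM in the saline libraries. Dynll2 stood at 558, 511 and 562 RPKM in the C9orf72 ASO libraries, 584, 628 and 546 RPKM in the control ASO libraries and 611, 539 and 602 RPKM in the saline libraries. Dynll1 was higher in each C9orf72 ASO library than in each control ASO library, while saline libraries 1 and 3 were higher than all of them, and Dynll2 overlapped between groups. Dynlt3 had 92.2 ± 4.78 RPKM in C9orf72 ASO, 96.7 ± 2.85 RPKM in control ASO and 90.5 ± 0.440 RPKM in saline, with each control ASO library above each saline library. Of the uncertain pair, Dynlt1a had 19.1 ± 3.62 RPKM in C9orf72 ASO, 17.1 ± 1.18 RPKM in control ASO and 17.3 ± 2.603 RPKM in saline. Dynlt1c had 13.4 ± 1.80 RPKM in C9orf72 ASO, 11.9 ± 0.470 RPKM in control ASO and 12.6 ± 1.63 RPKM in saline. In both, C9orf72 ASO library 1 was the highest of the 9.

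Dynlrb2 stood at 2.66, 1.71 and 2.27 RPKM in the C9orf72 ASO libraries, 1.72, 1.30 and 1.82 RPKM in the control ASO libraries and 3.11, 1.80 and 2.61 RPKM in the saline libraries. Dynlrb2 is the roadblock paralog of ciliated cells and one of the 10 ependyma markers used here, and it had the smallest p of the members between control ASO and saline (-0.59, SE 0.20, adjusted p = 0.794). Control ASO library 2 was the lowest and saline library 1 the highest, and the groups overlapped. Against control ASO the C9orf72 ASO group was at 0.42 (adjusted p = 0.376), and against saline at -0.16. The sum of the ependyma markers, which counts Dynlrb2 itself, was 25.9 to 30.0 RPKM in C9orf72 ASO, 22.5 to 24.8 RPKM in control ASO and 23.1 to 33.0 RPKM in saline libraries. The lowest saline sum lay within the control ASO range. The part of these markers in the values of Dynlrb2, Kif6, Kif9 and Kif19a was not tested.

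Dynactin joins dynein to cargo and raises the distance it travels. Its 6 members had log2 fold changes of -0.19 to 0.06 against control ASO (median 0.01), of which those of Dctn2, Dctn3 and Dctn6 turned in sign with the length trend removed, and 0 passed in each comparison. Dctn1 stood at 65.9, 69.4 and 75.6 RPKM in the C9orf72 ASO libraries, 84.1, 71.6 and 72.6 RPKM in the control ASO libraries and 82.8, 80.3 and 77.1 RPKM in the saline libraries. Dctn1 encodes p150Glued, the subunit that holds the microtubule and dynein, and its C9orf72 ASO libraries were below all saline libraries and overlapped with control ASO. For Dctn1 the log2 fold change was -0.19 against saline (SE 0.08, adjusted p = 0.309) and -0.11 against control ASO (adjusted p = 0.519). Dctn5 stood at 51.7, 61.5 and 58.3 RPKM in the C9orf72 ASO libraries, 60.5, 68.3 and 66.9 RPKM in the control ASO libraries and 65.3, 61.8 and 61.6 RPKM in the saline libraries. Dctn5, a subunit of the pointed end of the complex, was below all saline libraries and overlapped with control ASO library 1, at -0.19 against control ASO (SE 0.07, adjusted p = 0.299). C9orf72 ASO library 1 was the lowest of the 9. Dctn2, or dynamitin, had 86.3 ± 8.19 RPKM in C9orf72 ASO, 84.6 ± 6.60 RPKM in control ASO and 88.8 ± 5.09 RPKM in saline. Dctn3, which sits with it in the shoulder of the complex, had 45.3 ± 4.20 RPKM in C9orf72 ASO, 44.6 ± 0.794 RPKM in control ASO and 46.6 ± 5.02 RPKM in saline. Both overlapped between groups. Dctn4, at the pointed end, had 29.5 ± 1.37 RPKM in C9orf72 ASO, 29.4 ± 1.63 RPKM in control ASO and 29.3 ± 0.848 RPKM in saline. Dctn6, the partner of Dctn5 there, had 28.7 ± 1.09 RPKM in C9orf72 ASO, 27.5 ± 0.731 RPKM in control ASO and 28.5 ± 1.44 RPKM in saline. These 4 subunits overlapped in each comparison.

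Within families of paralogs, the share that each member held of the summed RPKM is given here with no test. Kif5c held 18.6 ± 0.112% in C9orf72 ASO, 19.8 ± 0.133% in control ASO and 19.5 ± 0.475% in saline of the Kif5 sum. All 3 C9orf72 ASO libraries were below the 6 control libraries, of which saline library 1 was the closest at 19.0%. Kif5a held 50.7 ± 1.5% in C9orf72 ASO, 50.8 ± 1.495% in control ASO and 51.5 ± 0.798% in saline. Kif5b held 30.7 ± 1.44% in C9orf72 ASO, 29.4 ± 1.61% in control ASO and 29.0 ± 1.26% in saline, and both overlapped. Dync1i2 held 64.6 ± 2.17% in C9orf72 ASO, 60.6 ± 2.16% in control ASO and 61.6 ± 1.196% in saline of the intermediate chain sum, higher in each C9orf72 ASO library than in the 6 control libraries, the closest of which was saline library 1 at 63.0%, against 63.1% in C9orf72 ASO library 2. Dync1li2 held 73.3 ± 0.962% in C9orf72 ASO, 75.2 ± 0.483% in control ASO and 75.4 ± 1.86% in saline of the light intermediate chain sum. Dynll2 held 93.3 ± 0.343% in C9orf72 ASO, 94.3 ± 0.143% in control ASO and 93.8 ± 0.267% in saline of the Dynll sum. Both the Dync1li2 and the Dynll2 share were lower in each C9orf72 ASO library than in the 6 control libraries. The closest control was saline library 3, at 74.19% for Dync1li2 and 93.66% for Dynll2, against 73.88% and 93.56% in C9orf72 ASO library 3. The Dynll2 share was also higher in each control ASO library than in each saline library. Such shares were not computed for other genes. With each library left out in turn the difference in the Kif5c share against control ASO lay between -1.205 and -1.079 percentage points, an alternative chosen after seeing the data. This was the narrowest range of the shares against control ASO. It was 2.78 to 5.03 for Dync1i2, -2.17 to -1.32 for Dync1li2, -1.21 to -0.870 for Dynll2, 0.556 to 2.14 for Kif5b and -0.935 to 0.592 for Kif5a. Against saline the range was -1.10 to -0.636 for Kif5c and -2.69 to -1.02 for Dync1li2. The transcripts compared differ in length, and the part of length in these shares was not tested. The longest Kif5c transcript has 6856 bases, that of Kif5a 6295 and that of Kif5b 6032. Dync1i2 has 2631 and Dync1i1 2718, Dync1li2 has 4627 and Dync1li1 2601, and Dynll2 has 2476 and Dynll1 2030.

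**Figure D3:**
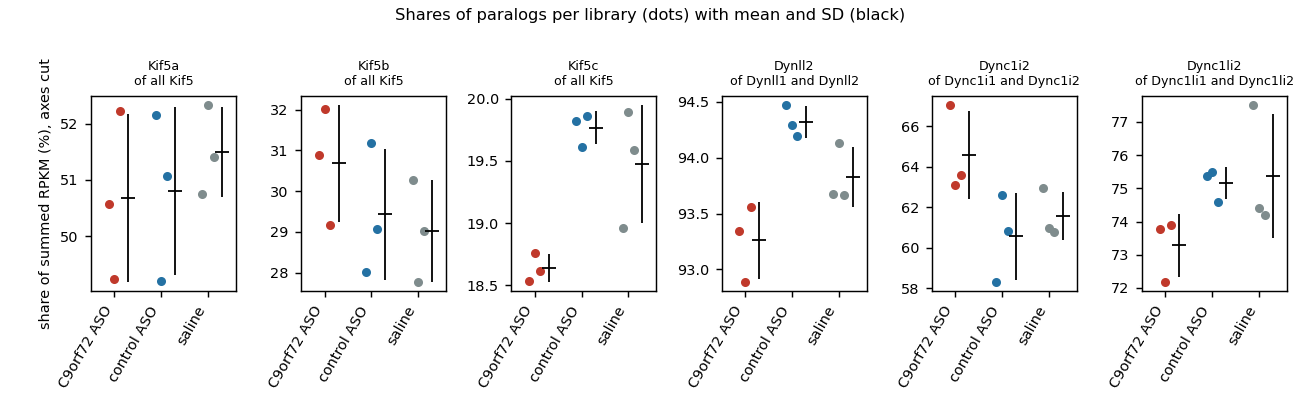
Share of the summed RPKM of a paralog family held by 1 member (percent; axes do not start at 0 and differ between panels). Dots are libraries, with C9orf72 ASO left of control ASO left of saline, and black marks are the mean and SD of 3 libraries. The C9orf72 ASO dots lie apart from the 6 control dots for Kif5c, Dynll2, Dync1i2 and Dync1li2, and among them for Kif5a and Kif5b.

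Log2 fold changes of the motor genes were set against transcript length. Over the 51 members with no library at the floor, Pearson's r between the log2 fold change against control ASO and the log2 length of the longest transcript was -0.54, against -0.28 over 13970 genes. Between control ASO and saline, which shares the control ASO libraries, it was 0.48, against 0.23. Against saline it was -0.15, against -0.08. The 13970 genes include genes with a library at the floor, so the members and all genes were not filtered alike. These are descriptions across genes of the same libraries, which are no independent replicates. Genes were put in 5 length classes of equal size. The 18 members in the longest class (over 5170 bases, Kif5a, Kif5b, Kif5c, Kif1a, Kif1b and Dync1h1 among them) had a median of -0.11 against control ASO, against -0.09 for all 2794 genes of that class. The 6 members in the shortest class, Dynlrb1 and Dynlrb2 among them, had a median of 0.08, against 0.09. In the classes between, from short to long, medians were -0.04 for 12 members, against 0.02 for all genes of the class, 0.08 for 11 members, against -0.01, and -0.05 for 6 members, against -0.05, so that the members of the middle class did not keep to that order. Motor genes have a median length of 3433 bases, against 3149 over all tested genes. With the length trend of each library removed, the median of the members against control ASO was -0.02, and 8 named genes had the other sign: Dctn2 (-0.02), Dctn3 (-0.10), Dctn6 (-0.03), Kif13a (0.01), Kif2a (0.01), Kif3b (0.01), Kif5b (0.06) and Kifc2 (0.00), none of which passed.

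**Figure D4:**
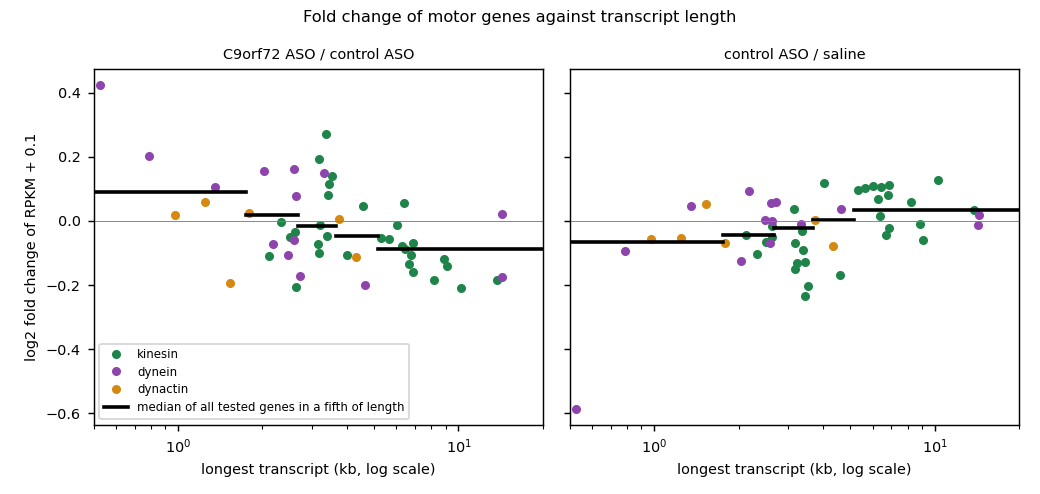
Log2 fold change of RPKM + 0.1 of the 51 motor genes with no library at the floor against the length of their longest transcript (kb, log axis), with C9orf72 ASO over control ASO on the left and control ASO over saline on the right. Black lines are medians of all tested genes in each of 5 length classes. On the left long genes lie lower than short ones, on the right higher, and the motor genes lie around the medians of all genes.

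Among the saline libraries values differed along the same axis. Saline library 2 was the highest of the saline libraries in 15 of the 18 members of the longest class and the lowest in 15 of 18 members of the 2 shortest classes. Saline library 1 was the lowest in 12 of 18 long members and the highest in 15 of 18 short ones. All genes of those classes deviated in the same direction, by a median of 0.09 for long and -0.09 for short genes in saline library 2, from the mean of the saline group, on the log2 scale. Control ASO library 1 was the highest of its group in 13 of 18 long members but in 1053 of all 2794 long genes, with a median deviation of 0.00 over those genes, and C9orf72 ASO library 3 was the lowest of its group in 10 of 18 long members and in 1562 of 2794 long genes. Without saline library 2 the r of the members against saline turned to 0.32, and without saline library 1 it was -0.53. Between control ASO and saline r was 0.67 without saline library 2 and 0.22 without saline library 1, and against control ASO it stayed between -0.57 and -0.40 with any 1 library of the compared groups left out. These values were added after seeing the data.

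**Figure D5:**
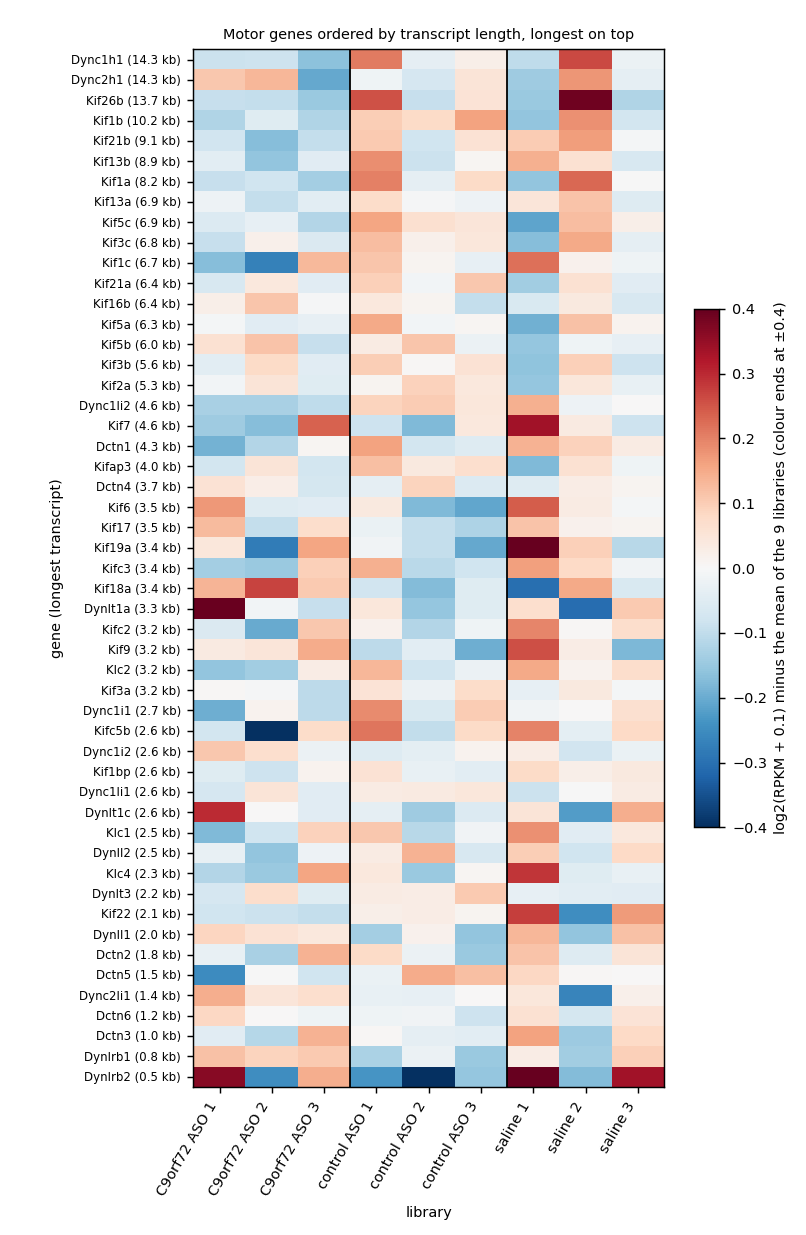
Deviation of each library from the mean of the 9 libraries in log2(RPKM + 0.1) for the 51 motor genes with no library at the floor, ordered by longest transcript (kb, in brackets), longest on top; red is higher, blue lower, and the colour ends at 0.4. In saline library 2 the upper rows are mostly red and the lower rows mostly blue, in saline library 1 the reverse, and in the C9orf72 ASO libraries the upper rows are mostly blue.

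Between control ASO and saline, 31 of 53 members were below 0 (58.5%, against 57.4% of all tested genes), and the groups did not overlap in 2 (3.77%, against 10.3%): Dynlt3, higher in control ASO (against 3.16% of all tested genes), and Kif17, lower (against 7.15%). After Dynlrb2 the smallest p-values were those of Kif27, which has a library at the floor, Kif6 (-0.20), Kif19a (-0.23) and Kifap3 (0.12), each at an adjusted p of 0.794. Without saline library 2 the median of the members was -0.05, and without saline library 1 it was -0.02.

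The partners of the motors were measured with them, from lists of pathway genes. Of 37 kinesin partners and cargo adaptors 0 passed in each comparison, and their median against control ASO was -0.07, with 26 below 0. The smallest p belonged to Apba1, also called Mint1, an adaptor between Kif17 and its glutamate receptor cargo, at 20.8 ± 0.293 in C9orf72 ASO, 25.9 ± 1.91 in control ASO and 25.5 ± 2.83 in saline RPKM (-0.31, SE 0.08, adjusted p = 0.234). Next was Clstn1, or calsyntenin-1, which binds kinesin light chains, at 142 ± 8.72 in C9orf72 ASO, 168 ± 8.41 in control ASO and 163 ± 7.18 in saline RPKM (-0.24, SE 0.07, adjusted p = 0.239). Of 30 tested dynein and dynactin partners 0 passed, with a median of -0.04 against control ASO. The endosome gene Rab11fip3 was at 14.1 ± 0.568 in C9orf72 ASO, 15.7 ± 0.848 in control ASO and 16.3 ± 0.648 in saline RPKM (-0.16, adjusted p = 0.294), and Snx6, which joins retromer to dynactin, was at 27.9 ± 0.983 in C9orf72 ASO, 25.6 ± 0.621 in control ASO and 25.5 ± 0.231 in saline RPKM (0.12, adjusted p = 0.333). The 24 intraflagellar transport genes, cargo trains of kinesin-2 and dynein-2 in cilia, had a median of 0.03 and 0 past the threshold, with Ift43 at 10.9 ± 1.40 in C9orf72 ASO, 9.21 ± 0.814 in control ASO and 10.7 ± 0.465 in saline RPKM (0.24, adjusted p = 0.302) and Ift46 at 12.4 ± 0.402 in C9orf72 ASO, 11.4 ± 0.162 in control ASO and 12.3 ± 0.523 in saline RPKM (0.12, adjusted p = 0.361). Of 15 axonemal dynein heavy chains, the motors that beat motile cilia, 2 were tested: Dnah7b at 2.21 ± 0.185 in C9orf72 ASO, 1.90 ± 0.0881 in control ASO and 2.15 ± 0.138 in saline RPKM (0.21, adjusted p = 0.333) and Dnah1 at 0.592 ± 0.0688 in C9orf72 ASO, 0.540 ± 0.0460 in control ASO and 0.626 ± 0.0477 in saline RPKM (0.11, adjusted p = 0.825).

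Beside the members that were lower against control ASO, the neuron marker sum was also lower in each C9orf72 ASO library than in each control ASO library. Snap25 held the largest part of that sum, at 1483, 1763 and 1543 RPKM in the C9orf72 ASO libraries and 1627, 1800 and 1892 RPKM in the control ASO libraries. Without Snap25 the summed markers of these groups overlapped. By single gene, 10 of 12 neuron markers were below 0 against control ASO (median -0.06). Against saline 6 of 12 were below 0 (median 0.00). The part of the neuron markers in the values of Kif1a, Kif5c, Dync1i1 and the other motors of neurons was not tested. Microglia markers were higher against control ASO in 11 of 11 tested (median 0.30), and against saline 2 of 11 were below 0 (median 0.36). Vessel markers were lower against saline in 12 of 12 (median -0.54) and against control ASO in 10 of 12 (median -0.15). Between control ASO and saline 11 of 12 vessel markers were below 0 (median -0.32). The part of microglia and vessel markers in the motor gene values was not tested either. Of 14 dividing cell markers 7 had a row and 6 were tested, and the 7 had a sum of 3.75 to 4.23 RPKM in C9orf72 ASO, 4.33 to 5.99 RPKM in control ASO and 3.71 to 4.49 RPKM in saline libraries. These sums count each value under 0.5 RPKM as 0.1. Top2a and Mki67 stood at that floor in each C9orf72 ASO and saline library, and Plk1 and Prc1 in some libraries. The distance between these sums depends on the floor and is no measure of size.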

How the data were processed

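RNA-seq of mouse spinal cord was analysed from the table of gene values that the authors deposited (9 libraries, 3 per group). Strand-specific libraries were made from Trizol-extracted total RNA, per the labels' protocols. Cutadapt 1.2.1, GSNAP 2012-07-20 and the build mm9 are named in the submitters' processing notes, while for the read counter, the annotation and the choice of genes the sources used here give nothing. The authors deposited values that were read as RPKM, since the header names no unit and the values are neither whole nor sum to a fixed total. Each value under 0.5 RPKM stood at 0.1, so small values hold no information below that limit. A gene that crosses it has a fold change of unknown size, which may be over- or understated.

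The limma package 3.58.1 (R 4.3.3, with statmod 1.5.0) tested differences with a mean trend and robust empirical Bayes. All 9 libraries entered 1 fit on the log2(RPKM + 0.1) scale, for genes with 0.5 RPKM or more in at least 3 libraries. Benjamini-Hochberg adjustment ran over all 14430 genes tested, with a threshold of 0.05. The pseudocount makes fold changes of low genes smaller. Fold changes of C9orf72 ASO are over the control named, and for both controls over the mean of their means. Libraries are numbered in accession order within a group, which pairs nothing. Symbols, gene types, lengths (longest transcript of the gene) and coding sequences came from GENCODE M21 on GRCm38, and promoters from RefSeq. No position of the authors' build is given. Depth was read from the step between values of 43 to 45 short RNA genes per library, of which 38.6% to 53.3% lay within 0.1 of a whole read, and is an estimate. The fit was tested on simulated data. Alternatives covered pseudocount, floor, filters, limma settings, scaling, quantile normalization, transcript length, the samples in the fit and each library left out.

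Genes named with values were those of a fixed core list, the 5 with the smallest p in each comparison, the members called, the 3 highest and 3 lowest, those beside the level threshold and 2 per pathway list. The remaining members were named so that each is accounted for. The members, lists and the alternatives on the floor and on length were chosen with earlier results of these data known.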

Additional observations from a re-analysis of the deposited data

How the results depend on the processing

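Of 1088 recomputed log2 fold changes of named genes, 1054 had the sign of the reported value and 34 the other sign. The 34 belonged to 14 of 61 named values, all within 0.07 of 0 as reported and none called. In 14 others, all of Kif26a, the side of the threshold changed. Against control ASO with the length trend removed, Dctn2 stood at -0.0163, Dctn3 at -0.0988, Dctn6 at -0.0268, Kif13a at 0.0137, Kif2a at 0.00851, Kif3b at 0.00863, Kif5b at 0.0590 and Kifc2 at 0.00445. Kifc2 was at 0.0133 and Klc4 at 0.0140 with quantile normalization, and Klc4 at 0.00695 with median scaling. With 1 library left out, values that crossed 0 ran from -0.0471 to 0.0868 for Dctn2, -0.0541 to 0.0730 for Dctn3, -0.0221 to 0.0504 for Dctn4, -0.0372 to 0.131 for Dync2h1, -0.0561 to 0.0470 for Kif5b, -0.0903 to 0.0638 for Kifc2, -0.126 to 0.0311 for Kifc3, -0.124 to 0.0111 for Klc1, -0.0990 to 0.0527 for Klc4 and -0.0340 to 0.0417 for C9orf72 between control ASO and saline. The r of fold change and length against saline lay between -0.526 and 0.322 with 1 library left out, the highest without saline library 2, an alternative chosen after seeing the data. Kif26a passed against control ASO with no filter (adjusted p = 0.0279) and without trend and robust estimation (1.15e-04), giving 1 motor gene called in each. Against saline 1 motor gene, Kif26a, passed with no filter, without trend and robust estimation, and with the length trend removed. Against both control groups 0 motor genes passed with floor values raised to 0.5 RPKM or with 0.5 RPKM required in each library, by construction of the second. Over all settings its adjusted p lay between 1.15e-04 and 0.745 against control ASO, 3.99e-05 and 0.309 against saline, and 2.18e-05 and 0.365 against both. The median of the motor genes was -0.0168 against control ASO with the length trend removed, -0.0141 against saline with median scaling and 0.00771 between control ASO and saline with median scaling. Of all genes, 10 passed against control ASO, 16 with no filter and 19 without trend and robust estimation. Against saline 10 passed, 21 with the length trend removed and 4 in a fit of the compared groups alone. Against both 25 passed, and 39 with 0.5 RPKM required in each library. Between control ASO and saline 1 passed, 5 with no filter, 0 with 0.5 RPKM required in each library, 9 without trend and robust estimation and 2 with the length trend removed. The cause of these differences was not tested.

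With 1 library left out at a time, genes called numbered 7 to 27 against control ASO, 4 to 54 against saline, 7 to 139 against both and 0 to 2 between control ASO and saline, the highest 3 without C9orf72 ASO library 3. Motor genes called numbered 0 against control ASO and between control ASO and saline in each such fit, 0 to 1 against saline and 0 to 1 against both. Their median lay between -0.07 and -0.03 against control ASO, -0.07 and -0.04 against saline, -0.0783 and -0.0308 against both, and -0.0572 and -0.00511 between control ASO and saline. No paired analysis was possible because the labels carry no replicate numbers. A fit of the compared groups alone was not run for both control groups, which use all libraries.

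The table's limit of 0.5 RPKM bounds what can be said of Kif26a, Kif27 and the 5 genes that did not meet the level rule. Intervals from counts are not given because the table holds no counts. The values of Dynlt1a and Dynlt1c are uncertain for the reason given with their sequences. Whole tissue values cannot separate cell types, and 3 libraries per group leave a median SE of 0.08 on the log2 scale.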
